A study of Arabidopsis thaliana with 15 samples.

Results

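SWEET4 (AT3G28007) and SWEET13 (AT5G50800) are a pair of sugar transporter genes of Arabidopsis thaliana whose transcripts were followed in the hypocotyl, the stem segment between root and rosette, after a change of day length. They are 2 of the 16550 genes that the array annotation gives a probe set of their own. They were chosen by their log2 intensities over the 5 days sampled, so those levels are a description and were not tested. Each gene has 1 probe set annotated to it alone, and that probe set was used.

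SWEET proteins are small membrane proteins that let sugars pass down their concentration gradient, in contrast to the proton-coupled carriers that move sugars against it. They fall into clades, numbered I to IV. Clade II members such as SWEET4 carry mainly hexoses, and SWEET4 moves glucose and fructose across the plasma membrane. Clade III members such as SWEET13 carry mainly sucrose, and some of them release it from the cells around leaf veins before it is loaded into the phloem. SWEET13 also carries gibberellins and, with SWEET14, acts in anthers. Clade IV members lie in the vacuolar membrane.

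The plants were the ecotype Col-0, the common laboratory wild type, and the labels name no transgene or mutation. They had 6 weeks of short days with 8 h of light at 22 °C, and were then moved to long days with 16 h of light, which brings on flowering. The series concerns abscisic acid in xylem fibre differentiation. Hypocotyls were taken before the move (day 0) and 1, 2, 4 and 10 days after it. A day is represented by 3 pools of 8 plants, each on its own array, for 15 arrays in all. The labels give no plants kept in short days beyond day 0 and no hour of harvest, so days since the move and plant age cannot be told apart. Each pool is ground hypocotyl tissue, so fewer cells of a type and less RNA per cell cannot be told apart in it.

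The deposited values are normalised array intensities on a linear scale. Array medians ran from 84.1 to 90.6 and lower quartiles from 23.5 to 25.9. Across probe sets, r was 0.983 to 0.990 within a day and 0.965 to 0.988 between days. Phloem markers (0 of 9) and epidermis markers (0 of 5) had no matched probe set. Of the xylem markers, 2 of 14 were matched, IRX10 and IRX15, which make xylan of the secondary wall. Of the others, 1 of 9 was matched for cambium, 4 of 9 for green tissue and 2 of 4 for root hairs.

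SWEET13 transcript was higher on each sampled day than on the day sampled before it, up to day 4, and lay far below its starting level on day 10. Its intensities in the 3 pools of day 0 were 280.2, 251.6 and 341.9, and on day 1 they were 642.3, 479.0 and 534.1. On day 2 they were 853.2, 951.7 and 1009. On day 4 the 3 pools read 1055, 1263 and 1156, and on day 10 they read 51.4, 58.0 and 46.3. The 3 pools of each day kept apart from those of every other day. The lowest pool of any other day, at 251.6, stood above the highest pool of day 10, at 58.0.

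On the log2 scale the day means of SWEET13 were 8.17 ± 0.22 (SD, n = 3) on day 0, 9.10 ± 0.21 on day 1, 9.87 ± 0.12 on day 2, 10.17 ± 0.13 on day 4 and 5.69 ± 0.16 on day 10. Against day 0, day 1 was 1.90-fold higher (log2 difference 0.92 ± 0.14, SE of the fit). Day 2 was 3.24-fold higher (1.70) and day 4 was 4.00-fold higher (2.00). Day 10 was 5.59-fold lower than day 0 (−2.48). Each fold here and below divides the larger geometric mean of 3 pools by the smaller, and every ± beside a log2 difference is the SE.

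Taken from day to day, SWEET13 was 1.71-fold higher on day 2 than on day 1 (log2 0.77) and 1.23-fold higher on day 4 than on day 2 (0.30). From day 4 to day 10 the level dropped 22.3-fold (−4.48), which is also the span between its highest and lowest day mean. From low to high the days of SWEET13 ran 10, 0, 1, 2 and 4, and no neighbours in that order had overlapping pools. The closest neighbours were days 2 and 4, where the highest pool of day 2 (1009) was just under the lowest pool of day 4 (1055).

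SWEET4 transcript was low on days 0, 1 and 10, with overlapping pools, and higher on days 2 and 4. Its intensities on day 0 were 25.3, 25.8 and 23.4, and on day 1 they were 24.1, 24.5 and 18.1. On day 2 the 3 pools read 55.0, 51.1 and 88.8, and on day 4 they read 119.7, 130.9 and 77.5. On day 10 they were back among the low values, at 28.6, 23.2 and 26.6. Every pool of days 2 and 4 was above every pool of the other days. Days 2 and 4 overlapped with each other, because the third pool of day 2 exceeded the third of day 4.

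The day means of SWEET4 on the log2 scale were 4.63 ± 0.07 (SD, n = 3) on day 0, 4.46 ± 0.25 on day 1, 5.98 ± 0.43 on day 2, 6.74 ± 0.40 on day 4 and 4.70 ± 0.15 on day 10. Day 2 was 2.54-fold higher than day 0 (log2 difference 1.34 ± 0.23) and day 4 was 4.30-fold higher (2.104 ± 0.23). Day 1 differed from day 0 by −0.17 ± 0.23 and day 10 by 0.07 ± 0.23, both with overlapping pools. The pools of SWEET4 spread most on days 2 and 4, the days on which the level was high.

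From day 1 to day 2 SWEET4 was 2.86-fold higher (log2 1.52), with no overlap. From day 2 to day 4 the difference was 1.69-fold (0.76) with overlapping pools, and from day 4 to day 10 the level dropped 4.09-fold (−2.03) with no overlap. From low to high its days ran 1, 0, 10, 2 and 4. The pools of days 1, 0 and 10 overlapped between neighbours, a gap of 1.27 on the log2 scale parted day 10 from day 2, and days 2 and 4 overlapped. The highest day mean was 4.84-fold above the lowest.

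**Figure D1:**
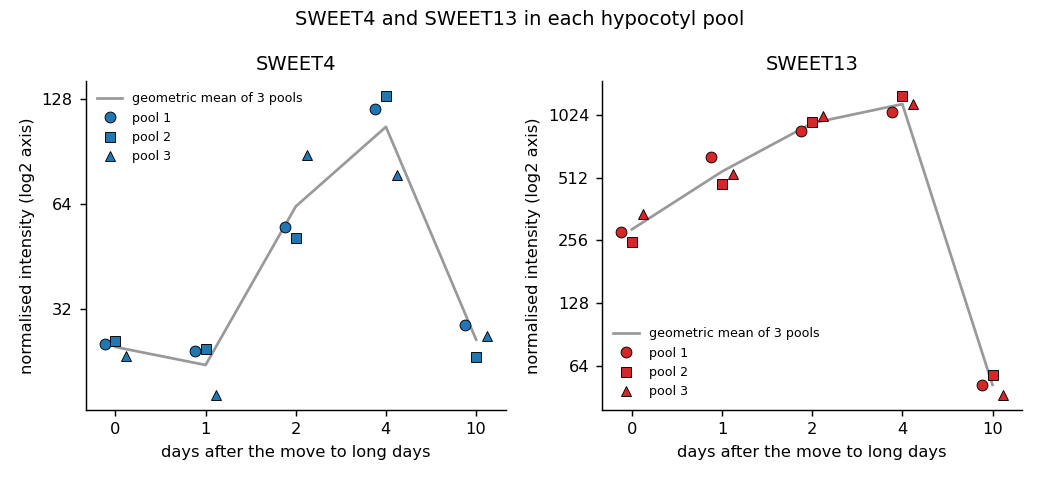
Intensity of SWEET4 and SWEET13 in each of the 15 pools, with the day after the move to long days on the horizontal axis (days evenly spaced) and intensity on a logarithmic vertical axis. Symbols are the 3 pools of a day and the line joins their geometric means. SWEET13 climbs from day 0 to day 4 and drops to 46.3 to 58.0 on day 10, while SWEET4 is high on days 2 and 4 only, reaching 130.9.

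Separation of pools was common on these arrays. Pools of day 1 and day 0 did not overlap for 22.0% of all probe sets, and the share was 36.2% for day 2, 40.5% for day 4 and 41.5% for day 10, each against day 0. It was 32.1% between days 2 and 1, 25.4% between days 4 and 2 and 33.8% between days 10 and 4.

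The 2 genes also differed in how far they stood above the dim end of the arrays. SWEET4 lay below the lower quartile of its own array in 5 of 15 pools, and SWEET13 in 0 of 15. The table holds no detection call, so whether the SWEET4 values near 25 exceed background is unknown. A fold of SWEET4 against days 0, 1 or 10 depends on how the authors treated background.

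Over the 15 arrays the log2 values of SWEET4 and SWEET13 correlated at r = 0.63 (Spearman's rho 0.64), given as a description because the arrays share 5 days. Both were highest on day 4 and both dropped by day 10. They differed on day 1, where SWEET13 was already 1.90-fold above day 0 and SWEET4 was not above it. They differed again on day 10, where SWEET13 was 5.59-fold below day 0 and SWEET4 was at its day 0 level within the SE. After each day's mean was taken away, the pool deviations of the 2 genes correlated at 0.06.

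Levels of the xylem and green tissue markers moved over the same days. The summed intensity of the 2 xylem markers was 700 to 787 on day 0, 558 to 653 on day 1, 1055 to 1190 on day 2, 1326 to 1382 on day 4 and 2340 to 2569 on day 10. The sum thus rose from day 1 to day 4, as SWEET13 did, and was highest on day 10, when SWEET13 was lowest. Most of it came from IRX10, with geometric means of 709 on day 0 and 2360 on day 10, beside 30.3 and 98.0 for IRX15. The summed intensity of the 4 green tissue markers (RCA, LHCB4.1, PRK and SBPASE, all of photosynthesis) was 2041 to 2248 on day 0, 1695 to 2138 on day 1, 1988 to 2124 on day 2, 1257 to 1423 on day 4 and 896 to 941 on day 10. The sum hides a difference on day 2. There SBPASE was above day 0 (log2 means 8.21 and 7.81, adjusted p = 0.0131 by limma). RCA was at 8.93 against 9.18 and was not called (adjusted p = 0.0884 by limma), nor were LHCB4.1 (0.141) and PRK (0.854). The 2 root hair markers summed to 36.5 to 50.1 over all pools, and the F test of limma called neither EXPA7 (adjusted p = 0.833) nor EXPA18 (0.448). EXPA18 stayed between 9.55 and 19.6, below the lower quartiles of the arrays. The cambium marker MOL1 read 115.7 to 149.1 over all pools and was not called either (F adjusted p = 0.431 by limma). The part of these tissues in the levels of SWEET4 and SWEET13 was not tested.

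Of the 17 SWEET genes of the family, 16 had a probe set of their own, and SWEET12 is not analysed here. The 14 besides SWEET4 and SWEET13 were tested with limma, a linear model fitted to all probe sets, and called at a Benjamini-Hochberg adjusted p below 0.05 over all 38408 of them. The F test over the 5 days called 5 of the 14 (SWEET2, SWEET9, SWEET15, SWEET16 and SWEET17), beside 41.5% of all probe sets. Against day 0 the contrasts called 0 of 14 on day 1 (background 4.88%, with 2.39% higher and 2.49% lower), with 2 at an unadjusted p below 0.05. On day 2 they called 1 higher (10.0% of all probe sets) and 3 lower (10.3%), on day 4 they called 1 higher (11.5%) and 4 lower (14.2%), and on day 10 they called 0 higher (14.8%) and 4 lower (14.0%). In either direction the background was 20.4% on day 2, 25.7% on day 4 and 28.8% on day 10. From day 1 to day 2 the contrast called 0 higher (7.39%) and SWEET2 lower (7.51%, 14.9% either way). From day 2 to day 4 it called 0 higher (2.07%) and SWEET9 lower (3.35%, 5.42% either way), and from day 4 to day 10 it called 0 higher (9.41%) and SWEET15 lower (7.70%, 17.1% either way). The median log2 differences of the 14 were −0.01, −0.00, −0.17 and −0.20 on days 1, 2, 4 and 10, and those of all probe sets were 0.01, −0.01, −0.03 and 0.01.

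SWEET15 (AT5G13170), a clade III sucrose transporter known from senescing leaves and filling seeds, was the gene called higher on days 2 and 4. Its intensities were 22.6, 18.2 and 19.3 on day 0, 45.2, 19.0 and 27.1 on day 1, and 71.3, 38.7 and 94.5 on day 2. They were 126.8, 162.4 and 70.5 on day 4 and 18.0, 19.4 and 18.7 on day 10. Like SWEET4, it was high on days 2 and 4 and low on days 0 and 10. It rose 3.20-fold on day 2 (log2 1.68 ± 0.37, adjusted p = 0.00745 by limma) and 5.67-fold on day 4 (2.50 ± 0.37, adjusted p = 4.15e-04 by limma) against day 0. It then fell 6.06-fold from day 4 to day 10 (−2.60 ± 0.37, adjusted p = 5.38e-04 by limma). Day 10 differed from day 0 by −0.10 (adjusted p = 0.886 by limma). SWEET15 lay below the lower quartile of its own array in 7 of 15 pools, all 3 pools of day 0 among them, so its folds against day 0 and day 10 carry the same unknown background as those of SWEET4.

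SWEET15 followed SWEET4 at r = 0.92 (rho 0.60) and SWEET13 at r = 0.76 (rho 0.91) over the 15 arrays. Likeness was ranked by Pearson r among 1487 genes whose day means span at least 1 on the log2 scale. SWEET15 ranked 8 for SWEET4 and 166 for SWEET13. By rho the order was reversed, with SWEET15 closer to SWEET13 than to SWEET4. SWEET13 itself ranked 142 for SWEET4, and SWEET4 ranked 298 for SWEET13. The third pool of day 2 was the highest of its day and the third pool of day 4 the lowest of its day in both SWEET4 and SWEET15. The pool deviations from the day means correlated at 0.65 between SWEET4 and SWEET15 and at 0.40 between SWEET13 and SWEET15.

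**Figure D2:**
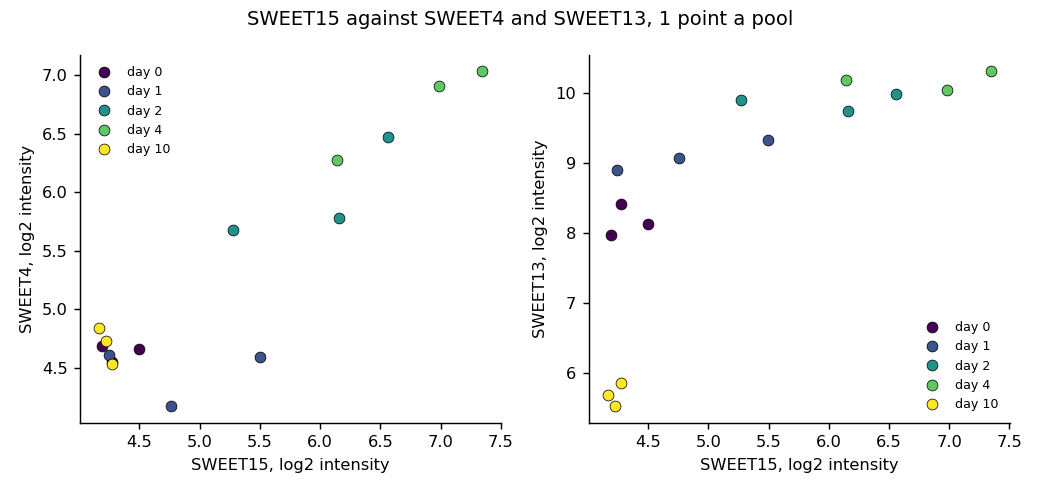
Log2 intensity of SWEET4 (left) and SWEET13 (right) on the vertical axes against that of SWEET15 on the horizontal axes, with 1 point for each of the 15 pools, coloured by day. Pools of days 0 and 10 lie together at low SWEET15 in the SWEET4 panel (r = 0.92), but in the SWEET13 panel (r = 0.76) the 3 pools of day 10 lie apart, below those of day 0.

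The clade IV pair went down while SWEET4 and SWEET13 were high. SWEET16 (AT3G16690), a vacuolar sugar transporter, read 152.1, 206.5 and 136.3 on day 0 and 35.7, 51.1 and 56.1 on day 10. It fell 2.96-fold on day 2 (log2 −1.56 ± 0.28, adjusted p = 0.00180 by limma) and 3.25-fold on day 4 (−1.70, adjusted p = 7.34e-04), and on day 10 it was 3.47-fold lower (−1.79, adjusted p = 3.46e-04). Its day 1 difference of −0.96 had an adjusted p = 0.0759 by limma, which became 0.0428 without the third pool of day 2. SWEET17 (AT4G15920), a vacuolar fructose transporter, read 437.5, 475.9 and 480.7 on day 0 and 379.3, 329.4 and 327.5 on day 10. It fell 1.40-fold on day 4 (−0.48 ± 0.08, adjusted p = 0.00112 by limma) and 1.35-fold on day 10 (−0.43, adjusted p = 0.00188).

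In clade I, SWEET2 (AT3G14770), a vacuolar transporter known from roots, read 104.2, 122.5 and 148.4 on day 0 and 47.7, 52.6 and 55.1 on day 10. Like SWEET13 it was lowest on day 10, 2.39-fold below day 0 (log2 −1.26 ± 0.17, adjusted p = 1.14e-04 by limma), but it had fallen 1.67-fold already on day 2 (−0.74, adjusted p = 0.00800). SWEET1 (AT1G21460), a glucose transporter, was 1.71-fold lower on day 10 (−0.77 ± 0.23, adjusted p = 0.0252 by limma), a call lost at up to 0.102 in 4 of 21 alternatives, among them leaving out the first pool of day 0 or the first or second pool of day 10. Its F test did not pass (adjusted p = 0.102 by limma) except without the third pool of day 0 (0.0233).

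The nectary sucrose transporter SWEET9 (AT2G39060) was 1.34-fold lower on day 4 (log2 −0.42 ± 0.12, adjusted p = 0.0247 by limma). It lay below the lower quartile of its own array in 14 of 15 pools, so whether it exceeds background is unknown too. The day 4 call was lost at up to 0.0991 when arrays were centred on their medians or when pool 2 or pool 3 of day 0 or pool 2 of day 4 was left out. The other 8 tested genes, SWEET3, SWEET5, SWEET6, SWEET7, SWEET8, SWEET10, SWEET11 and SWEET14, were not called and stayed between 10.1 and 29.9 in all pools, near or below the lower quartiles of the arrays. By clade, the F test called 1 of 3 genes in clade I, 0 of 4 in clade II besides SWEET4, 2 of 5 in clade III besides SWEET13 and 2 of 2 in clade IV. The share of all probe sets was 41.5%. All 4 of the clade II genes are among the dim ones just named, so clade and brightness cannot be told apart in these counts.

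**Figure D3:**
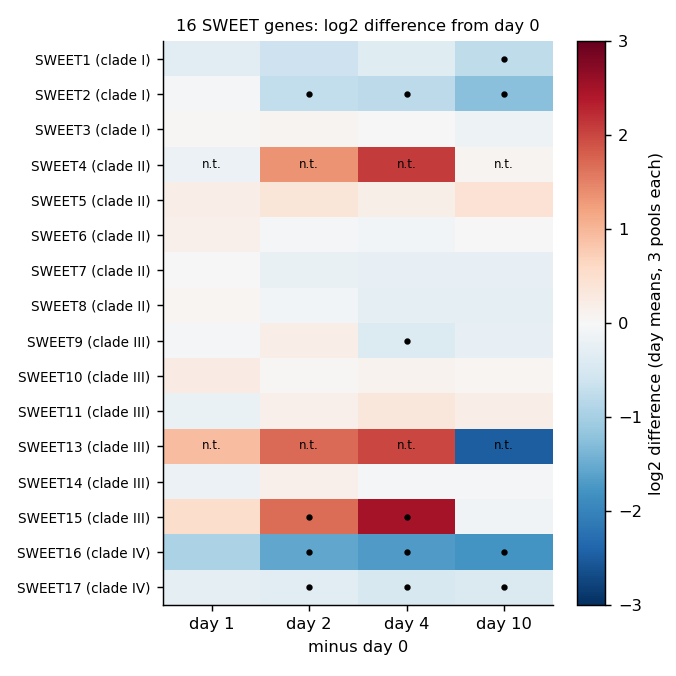
Log2 difference from day 0 of the 16 measured SWEET genes (rows) on days 1, 2, 4 and 10 (columns), as colour. A black dot marks a called difference, and n.t. marks SWEET4 and SWEET13, which were not tested. SWEET4, SWEET13 and SWEET15 are above day 0 on days 2 and 4, and SWEET16, SWEET17 and SWEET2 are below it.

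Of the 3 nearest genes on each side of either member, taken from the reference gene table, 4 were measured. The F test of limma called 0 of these 4, beside 41.5% of all probe sets, with 2 at an unadjusted p below 0.05. So few genes cannot show whether the neighbours depart from that share. SWEET10 lay below the lower quartile of its own array in 15 of 15 pools. AT3G28020 had log2 day means of 3.11 to 3.61, also at the dim end. Whether either exceeds background is unknown. SWEET10, which lies directly beside SWEET13, had an F adjusted p = 0.444 and differed from day 0 by 0.10 on day 4 and 0.05 on day 10 on the log2 scale. On the other side of SWEET10, AT5G50780 had an F adjusted p = 0.0780, and beside SWEET4 the values were 0.0823 for AT3G27999 and 0.217 for AT3G28020. The F test of AT5G50780 passed in 4 of 20 alternatives, at 0.0203 or more, among them without the third pool of day 0. AT3G27999 passed without that same pool (0.0297) and AT3G28020 without the third pool of day 2 (0.0462). In the contrasts, AT5G50780 was 0.23 higher on day 4 (adjusted p = 0.0152 by limma, up to 0.106 and lost in 3 alternatives). AT3G27999 was 0.50 higher on day 10 (adjusted p = 0.0472 by limma, lost in 11 alternatives).

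The genes whose levels followed SWEET13 most closely over the 15 arrays were JAL23 (AT2G39330, r = 0.99), a jacalin-related lectin, AT1G59740 (0.98), JRG21 (AT3G55970, 0.98), a jasmonate-regulated gene, AT1G12845 (0.97) and AT1G15290 (0.97). JRG21, for example, had day means of 6.45, 6.75, 7.74, 7.85 and 4.58 on the log2 scale on days 0, 1, 2, 4 and 10, with the same order of days as SWEET13. In all, 39 of the 1487 genes had r of at least 0.9 with SWEET13 and 18 had −0.9 or less. The genes most opposed to it were GH3.9 (AT2G47750, r = −0.96), of the family that joins amino acids to hormones, AT2G43140 (−0.95) and AT5G43910 (−0.95). GH3.9 had log2 day means of 7.27, 7.04, 6.52, 6.85 and 8.83, lowest on day 2 and highest on day 10.

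For SWEET4 the closest were AT4G01985 (r = 0.95), AT2G47780 (0.94), AT5G54165 (0.94), AT3G17130 (0.94) and AT4G21910 (0.93). AT4G01985 had log2 day means of 6.33, 6.30, 7.52, 8.41 and 6.16, high on days 2 and 4 as SWEET4 was. The day means of SWEET4 spanned 2.28 on the log2 scale with pool SDs of up to 0.43. Those of SWEET13 spanned 4.48 with SDs of up to 0.22. The part of this in the number of close genes was not tested. Fewer genes followed SWEET4 closely than SWEET13: 12 had r of at least 0.9 and 1 had −0.9 or less. That 1 gene was AT5G66960 (−0.90), followed by AT2G37690 (−0.88) and AT2G38430 (−0.88). These r values have the 5 days in common and are descriptions, and the lowest size among the 16 named genes was 0.849 when arrays were rescaled or a pool was left out.

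**Figure D4:**
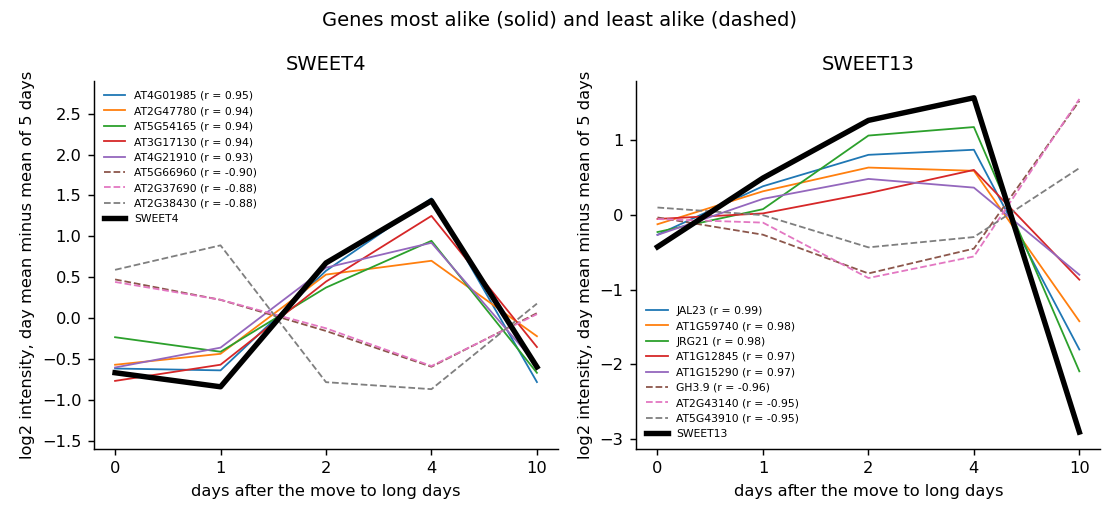
Log2 day means, each set to its own mean over the 5 days, of SWEET4 and SWEET13 (thick black lines) with the 5 most alike genes (solid) and the 3 least alike genes (dashed) of each. Horizontal axes give the day, evenly spaced. The most alike genes of SWEET13 drop on day 10 to below their day 0 level, and those of SWEET4 peak on day 4.

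Proton-coupled and vacuolar sugar carriers were counted beside the pair. Of 58 listed carriers 23 were measured, and the F test called 17 of them beside 41.5% of all probe sets. No sucrose/H+ symporter was among them (0 of 9 matched), so the phloem loaders are not covered. The counts called higher and lower than day 0 were 2 and 4 on day 1 (2.39% and 2.49% of all probe sets), 4 and 6 on day 2 (10.0% and 10.3%), 4 and 5 on day 4 (11.5% and 14.2%), and 4 and 8 on day 10 (14.8% and 14.0%). The median log2 differences were −0.04, 0.02, −0.06 and −0.05, beside 0.01, −0.01, −0.03 and 0.01 for all probe sets.

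The carrier AT4G04750, listed with the vacuolar and plastid carriers, ranked 23 by likeness to SWEET13 (r = 0.92). Its intensities were 734.0, 755.7 and 855.3 on day 0, 1238, 1256 and 1303 on day 2, and 136.8, 161.7 and 145.3 on day 10. It rose 1.62-fold on day 2 (log2 0.70 ± 0.08, adjusted p = 1.26e-04 by limma) and stood 5.28-fold below day 0 on day 10 (−2.40 ± 0.08, adjusted p = 1.91e-09), with its peak on day 2 where that of SWEET13 was on day 4. The vacuolar monosaccharide carrier TMT1 (AT1G20840) instead fell on every day, to 1.98-fold below day 0 on day 10 (−0.99 ± 0.06, adjusted p = 1.18e-07 by limma). TMT2 (AT4G35300), its relative, was 1.41-fold higher on day 4 (0.49 ± 0.06, adjusted p = 1.29e-04 by limma) and at 0.02 on day 10 (adjusted p = 0.844). AT1G08900 and AT1G08890 of the same list had smaller F adjusted p-values by limma (7.85e-06 and 8.62e-06) than TMT2 (4.30e-05). Both were below day 0 on days 1 and 2. AT1G08900 was highest on day 10 (log2 day means 6.06, 5.50, 5.51, 6.05 and 6.97). AT4G04760 (F adjusted p = 9.48e-06 by limma) was highest on day 2 at 6.88 and lowest on day 10 at 4.97. The hexose carrier AT5G61520, whose day 0 pools of 13.9, 13.6 and 13.5 lay below the lower quartiles of the arrays and may not exceed background, rose to 3.30-fold above day 0 on day 10 (1.72 ± 0.10, adjusted p = 1.43e-07 by limma), the day on which SWEET13 was lowest, while AT1G34580, AT5G26250 and AT3G19940 of the same list did not pass (F adjusted p = 0.804, 0.875 and 0.971). AT2G18480, the polyol carrier measured, was 3.10-fold lower on day 10 (−1.63 ± 0.17, adjusted p = 1.64e-05 by limma).

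Of 88 listed genes of sugar metabolism 18 were measured, and the F test called 13, beside 41.5% of all probe sets. The counts called higher and lower were 3 and 4 on day 1 (2.39% and 2.49% of all probe sets), 6 and 4 on day 2 (10.0% and 10.3%), 5 and 6 on day 4 (11.5% and 14.2%), and 4 and 5 on day 10 (14.8% and 14.0%). Their median log2 differences were −0.05, 0.01, 0.06 and 0.03, beside 0.01, −0.01, −0.03 and 0.01 for all probe sets. Of 21 listed starch genes 5 were measured, and the F test called all 5. APL3, APL4 and SBE2.2 were above day 0 on days 2 and 4. APL4 and SBE2.2 were called higher already on day 1 (adjusted p = 5.03e-04 and 7.72e-05 by limma), and APL3 was not (0.101). DPE1 (a disproportionating enzyme) fell on all 4 later days. PWD (phosphoglucan, water dikinase) passed the F test (adjusted p = 0.0294 by limma) but no contrast with day 0. The F call of PWD was lost in 5 of 20 alternatives that each left out 1 pool. The pools were pool 2 or pool 3 of day 1 or day 4, or pool 2 of day 10. APL3 (AT4G39210), a large subunit of ADP-glucose pyrophosphorylase, ranked 9 by likeness to SWEET4 (r = 0.92), and APL4 (AT2G21590), another such subunit, ranked 20 (0.87). APL3 read 666.8, 616.4 and 751.3 on day 0 and 2023, 2239 and 2264 on day 4. It rose 3.21-fold on day 4 (log2 1.68 ± 0.13, adjusted p = 3.04e-06 by limma) and was at 0.05 on day 10 (adjusted p = 0.837). APL4 rose 3.89-fold on day 4 (1.96 ± 0.10, adjusted p = 1.81e-07 by limma) and the branching enzyme gene SBE2.2 (AT5G03650) 2.55-fold (1.35 ± 0.08, adjusted p = 4.61e-07). Both were still higher than day 0 on day 10, APL4 by 0.68 and SBE2.2 by 0.52.

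ATSPS4F (AT4G10120), a sucrose-phosphate synthase, was higher than day 0 already on day 1 (log2 means 6.30 and 5.37, adjusted p = 9.81e-04 by limma). It stood 2.47-fold above day 0 on day 2 (log2 1.30 ± 0.13, adjusted p = 3.52e-05 by limma) and was still 1.20 higher on day 10. AT3G54270, the other sucrose synthesis gene measured, was not called (F adjusted p = 0.907 by limma). The gene cwINV6 (AT5G11920), named as a cell wall invertase, was lower already on day 1 (log2 means 6.57 and 7.47, adjusted p = 2.12e-04 by limma). On day 2 it was 2.40-fold below day 0 (−1.27 ± 0.10, adjusted p = 6.77e-06 by limma). AT1G62660, listed with sucrose cleavage, was 2.87-fold lower on day 10 (−1.52 ± 0.11, adjusted p = 8.04e-07 by limma). Among the hexose phosphorylation genes the F test called 3 of 7, a share near the 41.5% of all probe sets. They were AT1G66430 (F adjusted p = 3.53e-07 by limma), AT2G31390 (0.00105) and AT4G10260 (0.0250). AT1G66430 had log2 day means of 11.11, 11.31, 11.27, 10.84 and 10.10 on days 0, 1, 2, 4 and 10. AT2G31390 was highest on day 2, at 11.90 against 11.48 on day 0. The F call of AT4G10260 was lost in 4 of 19 alternatives, and its pools lay below the lower quartiles of the arrays. Of the 10 listed sugar starvation genes 2 were measured, and both were below day 0 on day 4. The difference was 3.64 for AT3G15450 and 0.74 for AKINBETA1 (AT5G21170), a subunit of the SnRK1 kinase, on the log2 scale. They parted on day 10. There AT3G15450 was still at 5.97 against 9.77 on day 0 (adjusted p = 2.30e-08 by limma). AKINBETA1 was at 9.18 against 9.32 and was not called (0.297). AT3G15450 was already 8.96-fold below day 0 on day 1 (−3.16 ± 0.18, adjusted p = 3.35e-06 by limma), when SWEET13 was 1.90-fold above it. No trehalose-6-phosphate gene was matched (0 of 18).

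**Figure D5:**
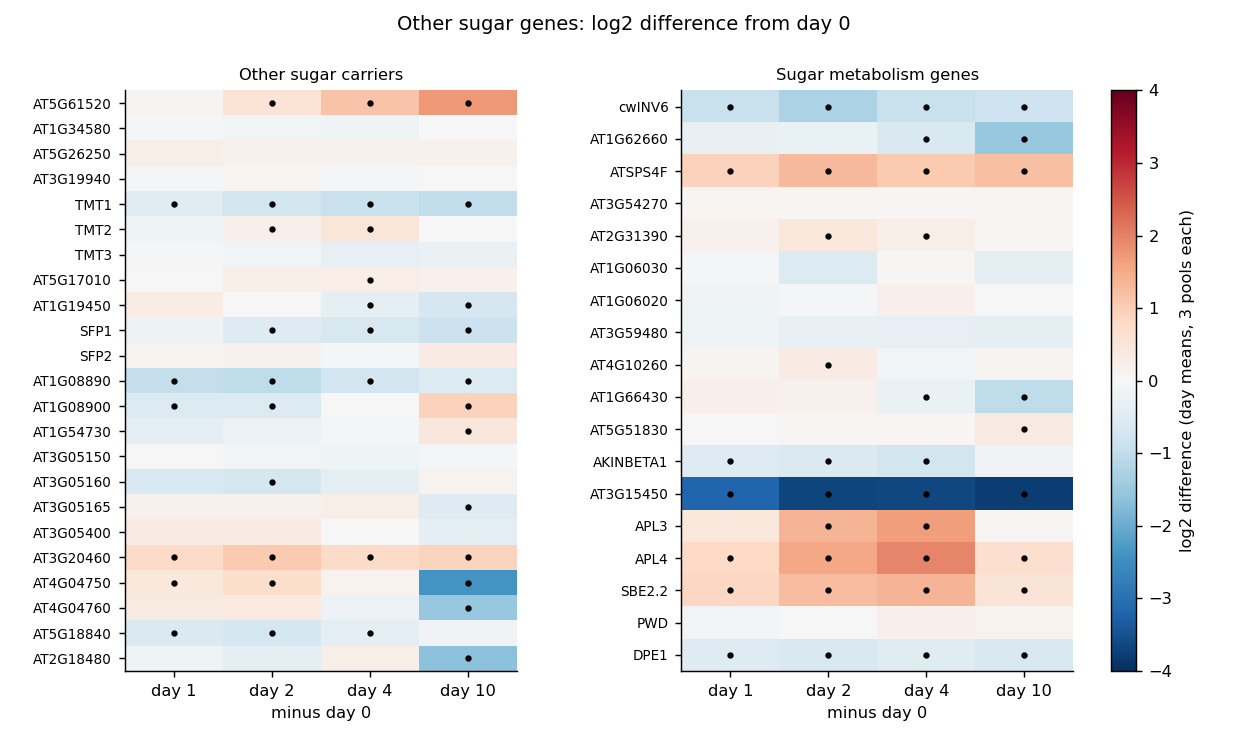
Log2 difference from day 0 of 23 other sugar carriers (left) and 18 genes of sugar metabolism (right) on days 1, 2, 4 and 10, as colour, with a black dot for each called difference. AT4G04750 is above day 0 on day 2 and 2.40 below it on day 10, and APL3, APL4 and SBE2.2 are highest on day 4.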

How the data were processed

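Per the labels, biotin-labelled total RNA of pooled hypocotyls was hybridised to 1 array per pool. The authors deposited 1 table of normalised intensity values, 1 column per array. The submitters' processing notes name RMA and Partek without role or version; background correction and annotation build are not given in these sources, and positions are therefore omitted. The deposited intensities are positive and linear, and were log2-transformed without a pseudocount or rescaling. Of 38408 probe sets, 16722 are annotated to 1 gene, 759 to several and 20927 to none. Symbols and neighbouring genes came from the RefSeq gene table (TAIR10.1).

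Values were fitted with limma 3.58.1 (lmFit and eBayes, R 4.3.3), with 1 mean per day over 15 arrays and 10 residual degrees of freedom, as moderated F and two-sided contrasts, Benjamini-Hochberg adjusted over all probe sets and called below 0.05. Tests were first tried on simulated data. The number of arrays limits the precision, and p-values measure the spread between pools, whose RNA may come from plants grown together. The members, lists and tests were chosen with earlier results of these data known. Named genes are every measured SWEET gene, list members called by the F test (at most 5 a list, or all where 5 or fewer are measured), the 5 most and 3 least alike genes of each member, and measured neighbours (3 each side). TMT2 was named besides these. A gene with several probe sets was represented by that with the highest mean. Of 212 listed genes 66 were measured. The alternatives were median centring, cyclic loess, no dim probe sets, only probe sets with 1 gene, a replicate block, only the 6 arrays compared, and each pool left out. Plots used matplotlib 3.10.9 (Python 3.11.15).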

Additional observations from a re-analysis of the deposited data

How the results depend on the processing

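For named genes, the alternatives were run on the F test and the contrasts with day 0, not on the day-to-day steps of tested genes. No called contrast with day 0 changed direction in them, and of 146 such calls, F tests included, 126 held under every alternative that could be run. The levels of SWEET4 and SWEET13 kept their direction throughout. Leaving out 1 pool at a time, SWEET4 on day 4 stood 1.96 to 2.34 above day 0 (log2) and on day 2 it stood 1.096 to 1.49 above it, lowest without the third pool of day 2. SWEET13 stood 1.90 to 2.12 above day 0 on day 4 and −2.58 to −2.36 against it on day 10. The day 1 count of the other SWEET genes was 0 to 1, with 1 without the third pool of day 2. The TMT2 call on day 2 (adjusted p = 0.0461 by limma) was lost in 16 of 21 alternatives, at up to 0.146.

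Over all probe sets the calls were 15936 by the F test and 1874, 7832, 9869 and 11066 on days 1, 2, 4 and 10. With only the probe sets of 1 gene, fewer were tested, and the counts were 7478, 1064, 3463, 4447 and 5501. Fitted to just the 6 arrays being compared, they were 917 on day 1 and 5021 on day 2. Leaving out 1 pool gave 1190 to 1836 on day 1, lowest without the second pool of day 0. Median centring moved the share of higher calls from 49.0% to 59.7% on day 1, from 49.3% to 62.9% on day 2, from 44.8% to 60.6% on day 4 and, for day 10 against day 4, from 55.0% to 43.8% (44.5% with cyclic loess). It shifted the median of all probe sets by less than 0.1.

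Replicate numbers showed no clear pairing of the pools. Same-numbered deviations from the day means correlated at −0.16 to 0.12 (median −0.01), over 0.1 in 2 of 30 pairs. Pools of other numbers correlated at −0.14 to 0.15 (median 0.01), over 0.1 in 2 of 60 pairs. With the replicate block, the F test called 14877 probe sets and the other SWEET genes kept counts of 5 by the F test and 0, 4, 5 and 4 on days 1, 2, 4 and 10. No other probe set of SWEET4 or SWEET13 with 1 gene was present, so that alternative was not run. With no detection calls, low SWEET4 values cannot be set against background.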
